A study of Mus musculus with 9 samples.

Results

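The HoxA gene cluster and the regulatory landscape beyond Hoxa13 were described from CUT&RUN for HOXA13 and HOXD13 in mouse distal forelimb, over a window of 1 Mb, chr6:52100000-53100000 (mm10). All peak intervals of 9 lists with a main summit in this window were taken and assigned to the promoters and bodies of 9 genes (Hoxa9, Hoxa10, Hoxa11, Hoxa11os, Hoxa13, Evx1, Hibadh, Tax1bp1 and Jazf1) or to the spacers between them. Intervals of different lists with at least 1 bp in common were merged, which left 189 sites in the window of 193786 in the genome. CUT&RUN releases the DNA around an antibody-bound protein with a tethered nuclease, so that a peak summit marks where fragment ends pile up, and it gives no measure of transcription. The cell type could therefore not be checked against marker genes.

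There were 3 wild-type (wt) HOXA13 and 3 wt HOXD13 libraries labelled E12.5, while the II1 T-DOM 542 line (542) gave 2 HOXA13 libraries of the same stage and 1 of HOXD13 with E11.5 in its title. That line carries an additional copy of the digit enhancer II1 with a promoter and the lacZ reporter. It lies on chromosome 2, within the proximal limb landscape that flanks the HoxD cluster. All embryos were of the B6CBAF1 strain, cells of embryos were pooled, and 542 stands for a single line. The growth notes give 1 collection day for all libraries, so the stage in that title could not be checked. Genotype, mapping genome and, for HOXD13, the stage given in the title cannot be told apart. The wt HOXD13 replicate 3 is a library of earlier work that was processed again, and both wt replicates 3 stand apart from replicates 1 and 2. Depth was inferred from the lowest background recovered in each list and is not the number of reads sequenced. It was between 36.9 and 65.5 M read ends per library, and the lists held between 23939 and 117719 intervals.

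Hoxa13, the last gene of the cluster, and its counterpart Hoxd13 encode homeodomain factors (together HOX13) that distal limb cells need to form digits. The transcription of Hoxa13 in the digits is known to depend on enhancers that are spread over a large domain past Evx1, among genes with unrelated functions. Homeodomain factors of this group bind AT-rich sequences, and both proteins recognise nearly the same letters.

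The sequences that carry the main patterns are shown first. They are 201 bases of mm10, plus strand, centred on the median summit of the 3 sites with the highest ranks, of 3 sites that hold a match close to the summit and of the highest site between Evx1 and Hibadh. Capitals mark the HOX13 consensus, which is any of CCNATAAA, CCNGTAAA, CTNATAAA and CTNGTAAA on either strand. These 7 sites were chosen after their values were seen. The first lies in an intron of Jazf1, 727 kb past the Hoxa13 start site (chr6:52987929-52988129), the second between Hibadh and Tax1bp1 at 413 kb (chr6:52673777-52673977), the third in an intron of Jazf1 at 534 kb (chr6:52795244-52795444) and the fourth in an intron of Jazf1 at 715 kb (chr6:52975334-52975534). The fifth lies between Evx1 and Hibadh at 216 kb (chr6:52476872-52477072), the sixth in the 3' part of the cluster, in introns of Hoxa3 and Hoxa4 transcripts at -69.9 kb (chr6:52190877-52191077), and the last in an intron of Hoxa10 at -27.3 kb (chr6:52233432-52233632).
Jazf1 +727 kb: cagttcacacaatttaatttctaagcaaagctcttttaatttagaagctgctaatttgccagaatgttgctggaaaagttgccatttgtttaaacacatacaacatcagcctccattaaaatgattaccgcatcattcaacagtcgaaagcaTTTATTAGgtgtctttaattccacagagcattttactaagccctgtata
Hibadh to Tax1bp1 +413 kb: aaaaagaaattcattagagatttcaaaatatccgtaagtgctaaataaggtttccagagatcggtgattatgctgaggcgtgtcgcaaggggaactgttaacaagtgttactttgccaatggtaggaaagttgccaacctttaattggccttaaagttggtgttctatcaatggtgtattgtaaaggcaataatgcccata
Jazf1 +534 kb: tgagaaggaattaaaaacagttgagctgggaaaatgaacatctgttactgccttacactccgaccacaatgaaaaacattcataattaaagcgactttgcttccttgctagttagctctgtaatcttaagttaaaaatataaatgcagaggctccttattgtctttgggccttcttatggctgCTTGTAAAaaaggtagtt
Jazf1 +715 kb: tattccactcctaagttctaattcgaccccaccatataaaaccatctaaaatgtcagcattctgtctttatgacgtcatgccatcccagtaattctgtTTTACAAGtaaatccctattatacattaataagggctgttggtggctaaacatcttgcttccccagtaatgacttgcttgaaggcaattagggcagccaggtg
Evx1 to Hibadh +216 kb: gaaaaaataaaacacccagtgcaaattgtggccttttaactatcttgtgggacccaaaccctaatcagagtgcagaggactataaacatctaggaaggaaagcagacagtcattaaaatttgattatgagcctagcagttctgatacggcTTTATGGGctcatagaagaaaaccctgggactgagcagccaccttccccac
Hoxa3/Hoxa4 -69.9 kb: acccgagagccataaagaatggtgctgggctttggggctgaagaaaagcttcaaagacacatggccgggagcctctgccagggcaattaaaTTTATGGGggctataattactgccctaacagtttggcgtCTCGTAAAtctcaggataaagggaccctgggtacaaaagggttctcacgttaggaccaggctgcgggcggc
Hoxa10 -27.3 kb: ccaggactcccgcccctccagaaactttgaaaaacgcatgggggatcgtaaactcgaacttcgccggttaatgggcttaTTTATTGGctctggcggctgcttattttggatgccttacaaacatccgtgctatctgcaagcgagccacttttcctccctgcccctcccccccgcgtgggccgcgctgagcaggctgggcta
The centre of a match sat 1.5 bp from the median summit at the Jazf1 +715 kb site, 5.5 bp from it at the Hoxa3/Hoxa4 site and 17.5 bp from it at the Hoxa10 site. At the highest site, Jazf1 +727 kb, the nearest match lay 55.5 bp away, and the 201 bases of the Hibadh to Tax1bp1 site held none. The main summits of the 9 lists spread around the median summit. The spread was 136 bp at Jazf1 +715 kb, 52 bp at the Hoxa3/Hoxa4 site and 23 bp at the Hoxa10 site. It was 265 bp at Jazf1 +727 kb and 367 bp at the Hibadh to Tax1bp1 site, more than the bases printed.

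Intervals were dense in the window in every list. They were called without a control library. The study reads a CUT&RUN peak at the promoter of its inserted reporter as likely non-specific nuclease signal. Whether intervals of the window include such signal was not tested. The window held 122, 93 and 90 intervals in the wt HOXA13 replicates 1 to 3 and 56, 117 and 67 in the wt HOXD13 replicates. The 542 HOXA13 lists held 134 and 106 intervals and the 542 HOXD13 list 148. Intervals covered between 2.99% and 10.7% of the bases of the window, the least in the wt HOXD13 replicate 1, which is also the shortest list. Across wt lists, the number of intervals per Mb was 4.43-fold that of the other autosomal and X sequence (mean log2 ratio 2.15 ± 0.26, SD, n = 6), with a range from 3.70-fold to 6.19-fold. The difference had the same direction in 6 of 6 wt libraries (exact sign-flip permutation test, two-sided, p = 0.031, adjusted p = 0.044 over 7 tests), and 0.031 is the smallest p that 6 libraries allow. With the top 10000 intervals of each list the mean log2 ratio was 3.13. No other bin of 1 Mb reached the count of this window in any wt list or in the 542 HOXD13 list, and 1 and 2 bins did in the 542 HOXA13 lists.

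The window was also set against the HoxD locus, taken up to the insertion site, since both loci hold posterior Hox genes with a digit landscape. The HoxD stretch also includes part of the proximal limb landscape on the other side of its cluster, so the regions differ in make-up. The number of intervals per Mb in the HoxA window exceeded that in the HoxD locus in 6 of 6 wt lists, by a mean of 1.08-fold (log2 0.11 ± 0.05, SD, n = 6; exact sign-flip permutation test, p = 0.031, adjusted p = 0.044). The ratio was between 1.03 and 1.14, and with intervals of at least 5-fold enrichment the mean log2 ratio was -0.0097, while it was 0.30 with the top 10000 intervals of each list. Deviations from antibody means correlated positively between same-numbered wt libraries, but only replicates 3 stood apart as a pair (0.348). HOXA13 replicate 1 correlated more with HOXD13 replicate 2 (0.219) than with HOXD13 replicate 1 (0.111), so the pairs rest on the titles' numbers. With these 3 pairs as units, the p of the sign-flip permutation test was 0.25 for each of the comparisons of density and consensus given here. This is the smallest p that 3 pairs can give.

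Within the window, sites were denser in the cluster than in the landscape. The stretch from the start of the window to the Hoxa13 start site (161 kb) held 119 ± 22.7 intervals per Mb over wt lists and the stretch from there to the end of the window (839 kb) held 85.4 ± 27.5 (SD, n = 6). The mean log2 ratio of the landscape to the cluster was -0.53 ± 0.32 and was negative in 6 of 6 wt lists (exact sign-flip permutation test, p = 0.031, adjusted p = 0.044). It was between -0.42 and -0.20 in the wt HOXA13 lists and between -1.06 and -0.50 in the wt HOXD13 lists. These ranges do not overlap, and the difference between antibodies was not tested. The lowest values, -1.06 and -0.71, belonged to the wt HOXD13 replicates 1 and 3, the shortest lists (23939 and 37589 intervals). The wt HOXD13 replicate 2, with 76838 intervals, had -0.50. The part of list length in this difference was not tested. With the top 10000 intervals of each list the mean log2 ratio was -1.58. With intervals of at least 5-fold enrichment it could not be computed, since a wt list had such intervals past Hoxa13 only. Most intervals nevertheless lay past Hoxa13, since that stretch is longer, with 100 of 122 in the wt HOXA13 replicate 1 and 40 of 56 in the wt HOXD13 replicate 1.

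**Figure D1:**
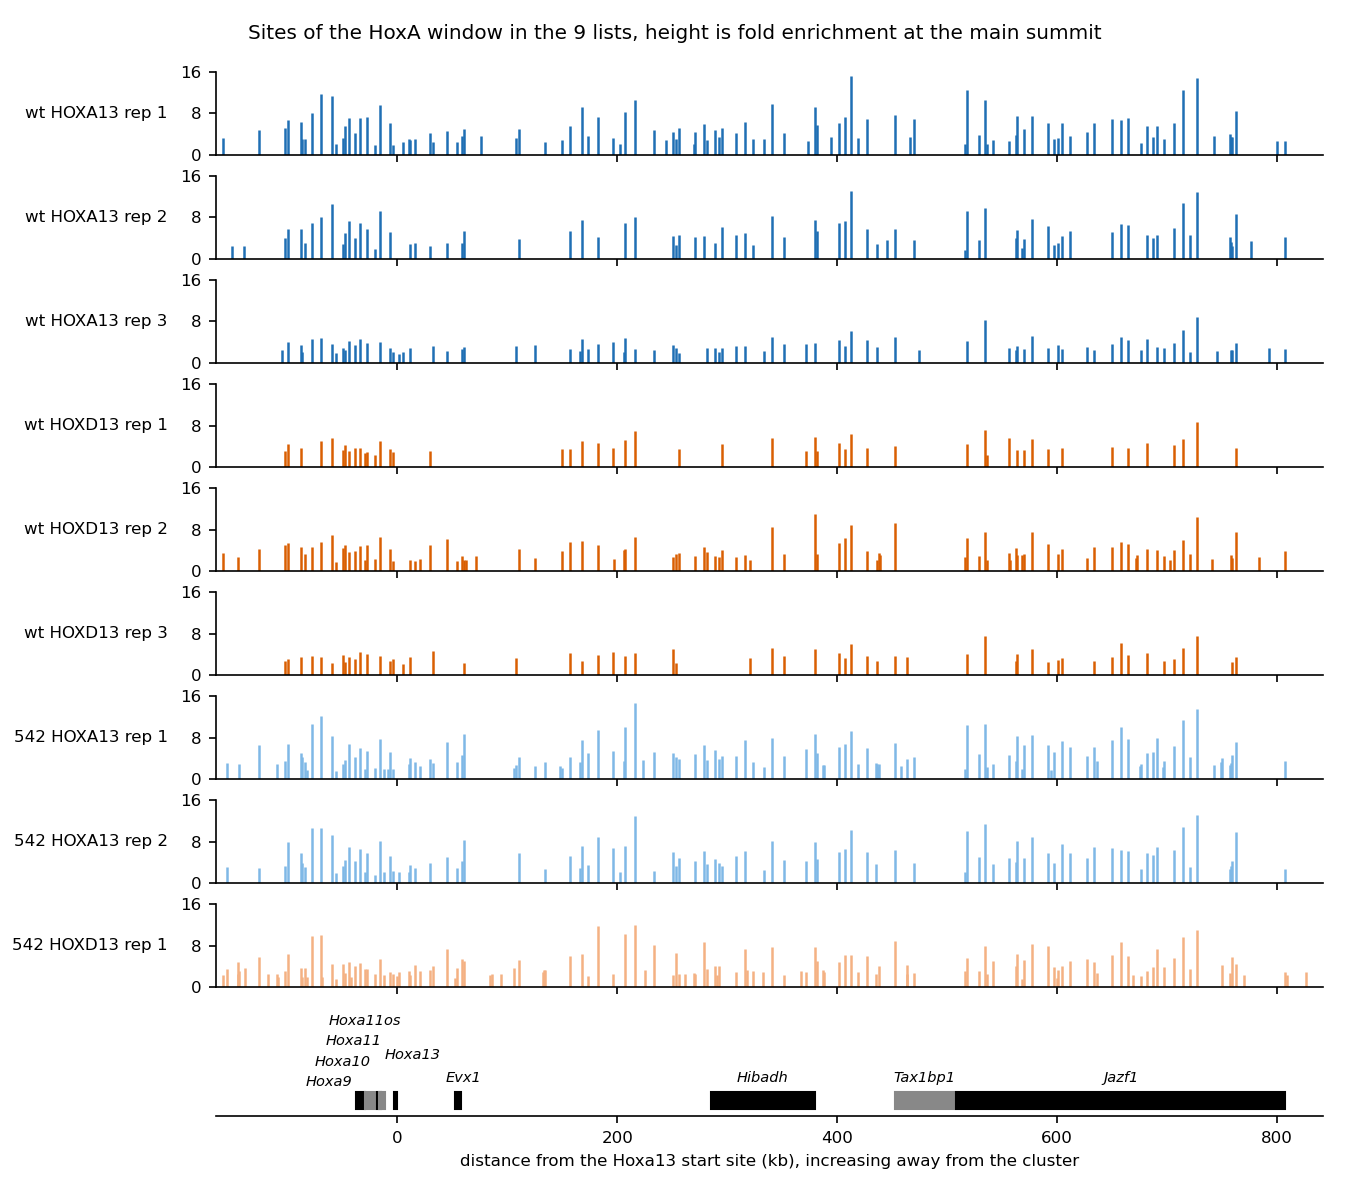
Sites of the window in each of the 9 lists. The horizontal axis gives the distance of the site from the Hoxa13 start site in kb, the height of a line the fold enrichment at the main summit in that list, and black and grey boxes the 9 genes. Sites fill the cluster and the landscape as far as Jazf1 and leave a gap of 41.3 kb over most of Tax1bp1.

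Sites of the window were shared by many lists. There were 37 sites held by all 9 lists, which is 19.6% of the 189 sites, where 6.4% of the sites of the genome were held by all 9. Of the 143 sites of wt lists, 37 (25.9%) were held by all 6 wt lists, against 10.5% over the genome, and these were the sites of all 9 lists. Sites of 1 list made up 32.8% of the window and 50% of the genome. A single list most often meant the 542 HOXD13 library, the deepest by inferred depth, which alone held 26 sites (13.8%, against 19.4% over the genome). With the top 10000 intervals of each list, 17 sites remained in all 6 wt lists, and with a fold enrichment of at least 5 there were 4.

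The shared sites were not evenly placed. Of the 37 sites of all 9 lists, 12 lay on the cluster side of Hoxa13 and 25 past it. The body of Jazf1, a zinc finger gene, held 13 of them, the 3' part of the cluster before Hoxa9 held 8, the spacer between Evx1 and Hibadh held 5 and that between Hibadh and Tax1bp1 held 4. The body of Tax1bp1, which encodes an autophagy receptor, held 6 sites in all and none of more than 5 lists. Per 100 kb of sequence there were 23.6 sites before Hoxa9, 18.4 in the body of Jazf1 and 18.2 in the body of Hibadh. There were 18.0 between Evx1 and Hibadh, 17.8 between Hoxa13 and Evx1 and 21 between Hibadh and Tax1bp1. The value of 38.0 between Hoxa11os and Hoxa13 rests on 3 sites in 7.89 kb, while the 6 sites of Tax1bp1 spread over 52.1 kb. The spacer between Hoxa13 and Evx1 held 9 sites, of which none was in all 9 lists. Both 542 HOXA13 lists but no wt list held 3 sites (1.59%, against 3.71% over the genome), before Hoxa9, in the body of Hoxa11os and between Hibadh and Tax1bp1, and each of them was also in the 542 HOXD13 list.

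**Figure D2:**
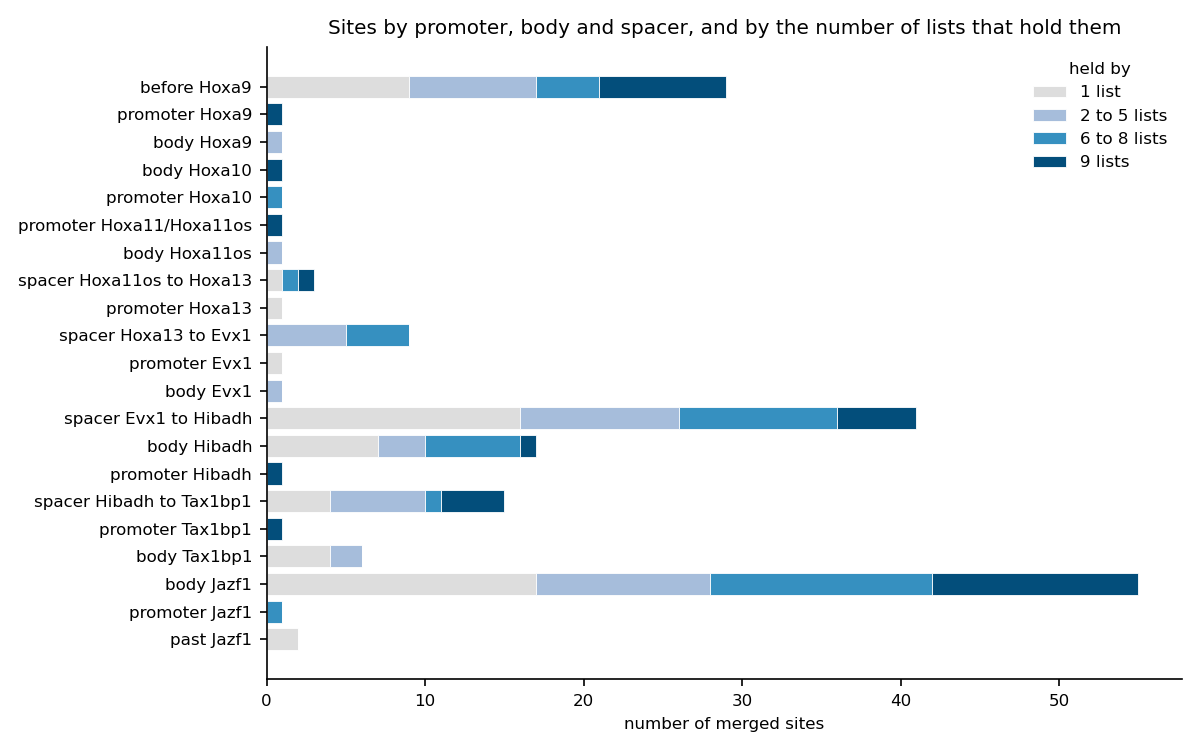
Number of merged sites by promoter, gene body and spacer, in order along the chromosome. Colours give the number of lists that hold a site. The body of Jazf1 holds the most sites of all 9 lists (13), and the promoters of Hoxa13 and Evx1 hold 1 site each, of 1 list.

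Among the posterior genes of the cluster, the promoters (1000 bp to each side of a start site) of Hoxa9, Hoxa11 and Hoxa11os carried an interval in all 9 lists. Any summit of an interval was counted. At Hoxa11 the summits lay 874 to 941 bp inside the gene, and in the wt HOXA13 replicate 1 another lay at 546 bp. They were the main summit of the interval in some lists only. Over all protein-coding genes, 20.6% had an interval of every wt list at a promoter and 20.4% one of all 9 lists. Hoxa9 and Hoxa10 pattern the more proximal limb and the trunk. Fold enrichment, the pileup at a summit divided by the local background of the same library, was 7.12, 6.88 and 4.70 at the Hoxa9 promoter in the wt HOXA13 replicates, 3.69, 4.88 and 4.45 in wt HOXD13, 6.02 and 6.53 in 542 HOXA13 and 4.70 in 542 HOXD13 (chr6:52226005-52227297). Its rank is given as the percentile among all intervals of a list. It was between 83.7 and 87 in the wt HOXA13 lists and between 41.4 and 79.5 in the wt HOXD13 lists. By rank every wt HOXA13 list was thus above every wt HOXD13 list, as at 12.54% of the sites of all 6 wt lists over the genome. The 542 HOXA13 lists stood at 73.7 and 77.4, within the wt HOXD13 range. By fold enrichment the antibodies overlapped, with 4.70 in the wt HOXA13 replicate 3 and 4.88 in the wt HOXD13 replicate 2. The median of the main summits lay in untranslated exon sequence of Hoxa9.

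The summits counted for the promoters of Hoxa11 and Hoxa11os fell in 1 site (chr6:52243650-52245374). Its median summit lies in an intron of both transcripts, within the promoter of Hoxa11os but outside that of Hoxa11. Hoxa11os is an antisense RNA of the distal limb bud, where Hoxa11, a gene of the zeugopod, is silent, and its transcription there is known to need HOX13. Fold enrichment at this site was 9.67, 9.29 and 4.08 in the wt HOXA13 replicates, 5.01, 6.49 and 3.76 in wt HOXD13, 7.66 and 8.13 in 542 HOXA13 and 5.43 in 542 HOXD13. In both antibodies the wt replicate 3 had the lowest value, and the ranges of the antibodies overlapped.

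At Hoxa10, the promoter was called in 7 lists and neither in the wt HOXA13 nor in the wt HOXD13 replicate 3. There the fold enrichment was between 1.6 and 2.59, and the site stood between percentiles 0.00807 and 20.4 of its lists, near the bottom. The site in the intron of Hoxa10 (chr6:52233100-52234045) was in all 9 lists, with a higher fold enrichment, between 2.79 and 7.31. The body of Hoxa9 had a single site, held by 5 lists, of which 2 were wt HOXD13 lists and none a wt HOXA13 list. Between Hoxa11os and Hoxa13, 1 site of all 9 lists lay 6.56 kb from the Hoxa13 start site on the cluster side, with a fold enrichment from 2.75 to 6.19.

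Other genes of the cluster, which act earlier and more anteriorly, were read by promoter counts. The promoters of Hoxa3, Hoxa4 and Hoxa7 had an interval in all 9 lists, that of Hoxa5 in 6 and those of Hoxa2 and Hoxa6 in none. Hottip, the noncoding RNA transcribed away from Hoxa13, had one in 3 lists, which were 1 wt HOXA13, 1 542 HOXA13 and the 542 HOXD13 list.

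The promoters of Hoxa13 and Evx1 were the exception among the 9 genes. Neither had an interval in any of the 6 wt lists or in the 542 HOXA13 lists, and each had one in the 542 HOXD13 library labelled E11.5. Evx1, an even-skipped type homeobox gene, lies next to Hoxa13. The Hoxa13 interval (chr6:52260730-52261013) had a pileup of 74 read ends and a fold enrichment of 2.16, at percentile 4.94 of that list. The Evx1 interval (chr6:52313179-52313609) had a pileup of 34 and a fold enrichment of 1.77, at percentile 0.166. Both had low ranks in the longest list, from the library with the greatest inferred depth (65.5 M read ends). The 542 HOXA13 replicate 1, which lacked both, had 63.9 M. The part of depth, stage and genotype in this difference was not tested.

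The stretch around both genes lacked sites of all 9 lists. Between the site at -6.56 kb and the next site of all 9 lists at 157 kb there were 163 kb of sequence with 30 sites, of which 11 were of 1 list and 3 of 8 lists. The site of most lists between Hoxa13 and Evx1 was at 11.8 kb (chr6:52272115-52273470) and was absent from the wt HOXD13 replicate 1 alone. Its fold enrichment was 2.83, 2.80 and 2.85 in wt HOXA13, 2.21 and 3.4 in the wt HOXD13 replicates 2 and 3, 3.99 and 3.56 in 542 HOXA13 and 2.34 in 542 HOXD13. All these values lay below those of the Hoxa11os site in the same library. Another site of 8 lists, named after its values were seen, lay just past the 3' end of Hoxa13 at -3.71 kb, in an exon of the noncoding 9530018H14Rik. The body of Evx1 had a single site, held by 5 lists.

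Past Evx1, the promoters of the 3 bystander genes differed. Those of Hibadh, a mitochondrial enzyme of valine breakdown, and of Tax1bp1 were in all 9 lists and that of Jazf1 was in 7. At Hibadh (chr6:52639933-52641182) the fold enrichment was 9.28, 7.54 and 3.84 in wt HOXA13, 5.69, 11.0 and 5.04 in wt HOXD13, 8.62 and 8.02 in 542 HOXA13 and 7.77 in 542 HOXD13. At Tax1bp1 (chr6:52713161-52714763) it was 7.76, 5.81 and 4.99, then 3.98, 9.27 and 3.69, then 6.88 and 6.44, and 9.02. The wt HOXD13 replicate 2 was the highest list at both promoters and the antibodies overlapped. The Tax1bp1 site held no match of the HOX13 consensus, and the nearest match at Hibadh lay 699.5 bp from the median summit. The Jazf1 promoter was absent from the wt HOXD13 replicates 1 and 3 and reached a fold enrichment of 4.27 at most.

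The highest ranks in the window belonged to distal sites. By the median percentile over wt lists, the first of the sites of all 9 lists was the Jazf1 intronic site at 727 kb (98.8), followed by the Hibadh to Tax1bp1 site at 413 kb (95.8), the Jazf1 site at 534 kb (95.4), the Jazf1 site at 715 kb (92.4) and a Hibadh intronic site at 341 kb (91.2). The site between Evx1 and Hibadh at 216 kb followed with 90.5, then the Hibadh promoter, the Jazf1 site at 578 kb and 2 sites of the 3' part of the cluster, at -59.8 and -69.9 kb.

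At Jazf1 +727 kb (chr6:52987347-52988725) the fold enrichment was 14.9, 12.9 and 8.92 in the wt HOXA13 replicates, 8.62, 10.5 and 7.52 in wt HOXD13, 13.5 and 13.2 in 542 HOXA13 and 11.1 in 542 HOXD13. It stood at percentile 97.3 or above in every list, and every wt HOXA13 percentile was above every wt HOXD13 percentile. At the Hibadh to Tax1bp1 site (chr6:52672938-52674550) the values were 15.1, 13.1 and 6.24, then 6.31, 8.86 and 5.94, then 9.27 and 10.2, and 6.26. The 542 HOXD13 list, at percentile 81.6, was the lowest of the 9 there.

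The third site, Jazf1 +534 kb (chr6:52794603-52796069), varied little between the wt replicates. Its fold enrichment was 10.7, 9.77 and 8.22 in wt HOXA13 and 7.06, 7.49 and 7.48 in wt HOXD13, and between 7.92 and 11.4 in the 542 lists. The site between Evx1 and Hibadh at 216 kb (chr6:52476447-52477606) varied more. It had 10.6, 8.05 and 2.77 in wt HOXA13, 6.95, 6.64 and 4.32 in wt HOXD13, and 14.7, 13 and 12 in the 542 lists, whose percentiles, from 98.3 to 99.3, were all above those of the wt lists. In the wt HOXA13 replicate 3 it was at percentile 21.9.

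**Figure D3:**
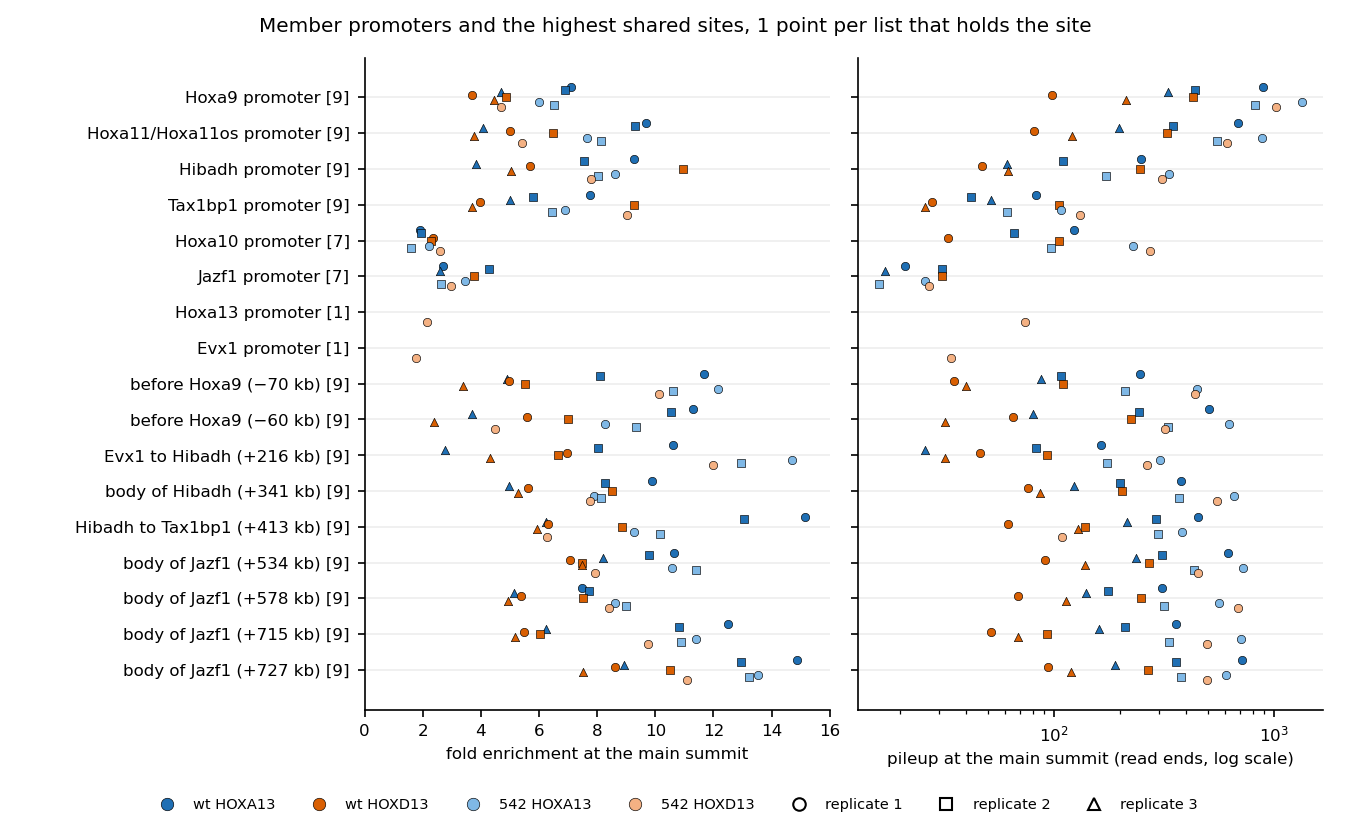
Fold enrichment (left) and pileup in read ends on a log axis (right) at the main summit, 1 point per list that holds the site. Rows are the member promoters, then the highest shared sites by position, with the distance from the Hoxa13 start site and, in brackets, the number of lists. The Hoxa9 promoter has the highest pileups although distal sites such as Jazf1 +727 kb have the higher fold enrichment.

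Ranking by pileup gave another order. Pileups were recovered from the deposited fold enrichment and p-value of each summit. The Hoxa9 promoter had the highest pileup of the window in 7 of 9 lists. Its pileups were 896, 437 and 331 read ends in wt HOXA13, 98, 428 and 213 in wt HOXD13, 1340 and 821 in 542 HOXA13 and 1023 in 542 HOXD13. It was second in the wt HOXD13 replicate 1, behind an intergenic site just before Hoxa9, and in the 542 HOXA13 replicate 1, behind a site in an intron of Hoxa7. The lowest of its pileups, 98, has an exact Poisson 95% interval from 79.6 to 119, which covers counting error only. By fold enrichment, the Hoxa9 promoter was 11th to 47th of the intervals of the window across the 9 lists. Jazf1 +727 kb had pileups of 713, 360 and 189 in wt HOXA13 and 94, 268 and 120 in wt HOXD13.

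The local background differed in the same way. For the 12 shared sites of the cluster side the median pileup per 1 M read ends was between 1.48 and 8.26 in the 9 lists, and for the 25 shared sites past Hoxa13 between 0.778 and 3.71. The median background per 1 M was between 0.339 and 1.39 on the cluster side and between 0.175 and 0.537 past Hoxa13. In each of the 9 lists the cluster side had the higher median pileup, the higher median background and the lower median fold enrichment, for example 6.89 against 7.51 in the wt HOXA13 replicate 1 and 3.65 against 4.62 in the wt HOXD13 replicate 1. No control library entered the background, which was estimated from the library itself. Which side of Hoxa13 ranks higher therefore depends on whether pileup or fold enrichment is read.

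**Figure D4:**
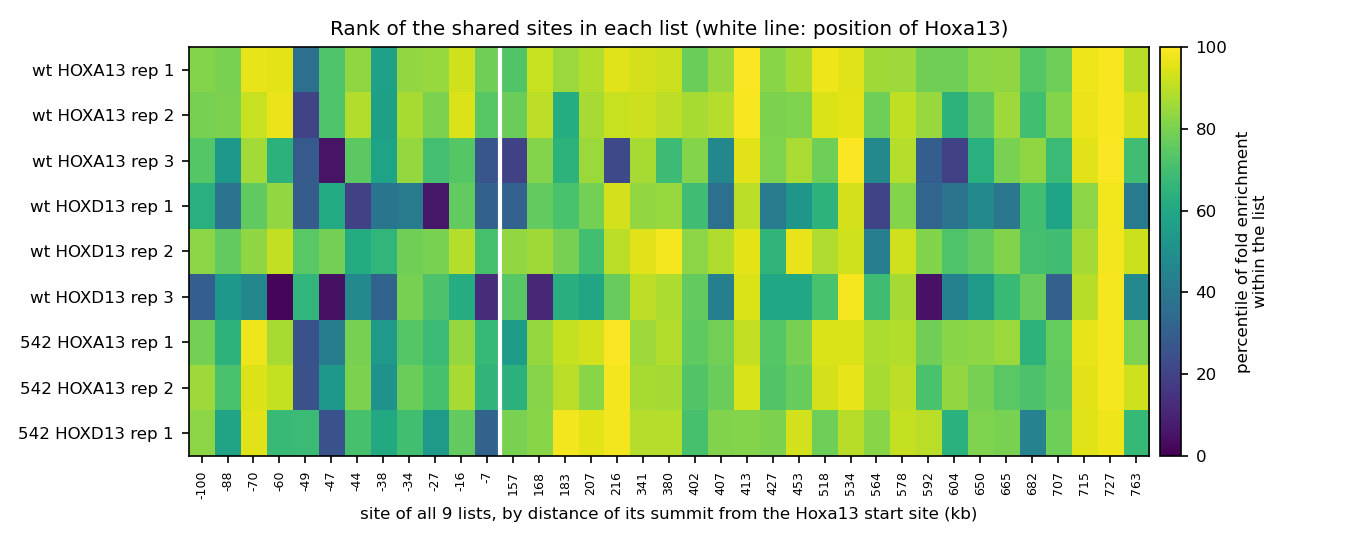
Percentile of fold enrichment within each list at the 37 sites held by all 9 lists, in order along the chromosome (horizontal axis, distance of the summit from the Hoxa13 start site in kb). Yellow marks high ranks. The column at 727 kb is high in every list, and both wt replicates 3 and the wt HOXD13 replicate 1 are lower than the others at many sites.

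The antibodies were compared as the share of a list that falls in the window. It was 1.40, 1.59 and 1.57 intervals per 1000 in the wt HOXA13 lists and 2.34, 1.52 and 1.78 in the wt HOXD13 lists, and these ranges overlap. The log2 ratio of HOXA13 to HOXD13 was -0.29 (exact permutation test, two-sided, p = 0.3, adjusted p = 0.3; 3 against 3 cannot go below 0.1). The highest share belonged to the shortest list, and among the top 10000 intervals of each list the log2 ratio was 0.16, in the opposite direction.

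Sites held by both antibodies were the most frequent class. A wt list of each antibody held 92 of the 189 sites (48.7%, against 28.7% over the genome), 34 were in wt HOXA13 lists only (18.0%, against 24.4%), 17 in wt HOXD13 lists only (8.99%, against 12.6%) and 46 in no wt list (24.3%, against 34.3%). No site of the window was in all 3 wt HOXA13 lists and no wt HOXD13 list, where 1.37% of the wt sites of the genome were, and none was in all 3 wt HOXD13 lists and no wt HOXA13 list, where 0.0291% were. At 7 of the 37 sites of all 6 wt lists (18.9%) every HOXA13 percentile was above every HOXD13 percentile, against 12.54% over the genome, and at 0 sites the reverse held, against 2.94%. These 7 sites were Jazf1 +727 kb and Jazf1 +715 kb, the Hoxa9 promoter, 2 sites before Hoxa9, 1 between Evx1 and Hibadh and 1 between Hibadh and Tax1bp1.

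HOXA13 in the 542 line, whose insertion lies on another chromosome, was compared with HOXA13 in wt. The share was 1.35 and 1.43 intervals per 1000 in 542 HOXA13 lists, against 1.40 to 1.59 in wt, a log2 ratio of -0.13 (exact permutation test, two-sided, p = 0.3, adjusted p = 0.3; 2 against 3 cannot go below 0.1). The direction of this ratio reversed to 0.065 with a fold enrichment of at least 5 and to 0.06 with the top 10000 intervals. Among 57 sites of all 5 HOXA13 lists, both 542 percentiles were above all wt percentiles at 10 (17.5%, against 21.3% over the genome) and below all of them at 9 (15.8%, against 8.16%). Of the 10, 4 lay between Evx1 and Hibadh and 4 in the body of Jazf1. Of the 9, 3 lay between Hibadh and Tax1bp1, 2 in the body of Hibadh, 1 at the promoter of Tax1bp1, 1 at that of Hoxa9, 1 before Hoxa9 and 1 in the body of Jazf1, at 727 kb.

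The HOX13 consensus was more frequent at summits of the window than beside them. In the wt lists, 16.7% ± 3.32 (SD, n = 6) of the 50 bp windows around main summits held it, and 2.30% ± 1.42 of the windows 1000 bp to each side. The mean difference was 14.4 percentage points ± 3.48, positive in 6 of 6 wt libraries (exact sign-flip permutation test, p = 0.031, adjusted p = 0.044), and 9.17 with every summit counted. The consensus was at 18.9%, 22.6% and 14.4% of summits in wt HOXA13, 14.3%, 15.4% and 14.9% in wt HOXD13, 20.9% and 22.6% in 542 HOXA13 and 16.9% in 542 HOXD13. Of all consecutive 50 bp stretches, 2.49% of those in the window and 2.58% of those in the genome held the consensus. The consensus was taken from general knowledge of HOX13 proteins. The study drew its own HOX13 motifs partly from the wt replicates 3, so those lists are not independent of such motifs.

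Summits of the window held the consensus more often than summits elsewhere, of which 10.2% ± 2.11 had it. The difference was 6.59 percentage points ± 2.61 and positive in 6 of 6 wt libraries (exact sign-flip permutation test, p = 0.031, adjusted p = 0.044). It turned to -4.06 percentage points among intervals of at least 5-fold enrichment, of which 6 to 49 lay in the window per wt list, and was 2.71 with every summit counted (exact permutation p = 0.062).

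Among the sites, the consensus lay in the 50 bp around the median summit at 9 of the 37 sites of all 9 lists (24.3%), at 18 of the 90 sites of 2 to 8 lists (20%) and at 5 of the 62 sites of 1 list (8.06%). All 10 of the highest shared sites held a match somewhere within their bounds. At 2 of them it was at the median summit, the Hoxa3/Hoxa4 and the Jazf1 +715 kb sites printed above. At the 37 sites of all 9 lists the main summits spread over a median of 287 bp, against 281 bp over the genome. Shared sites are also wider, with a median of 1379 bp against 266 bp for sites of 1 list. The RefSeq promoters of the 9 genes (GRCm38, 12 stretches of 300 bases, from 250 before to 50 after a start) held no match, where 10.3% of 32851 promoters did.

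**Figure D5:**
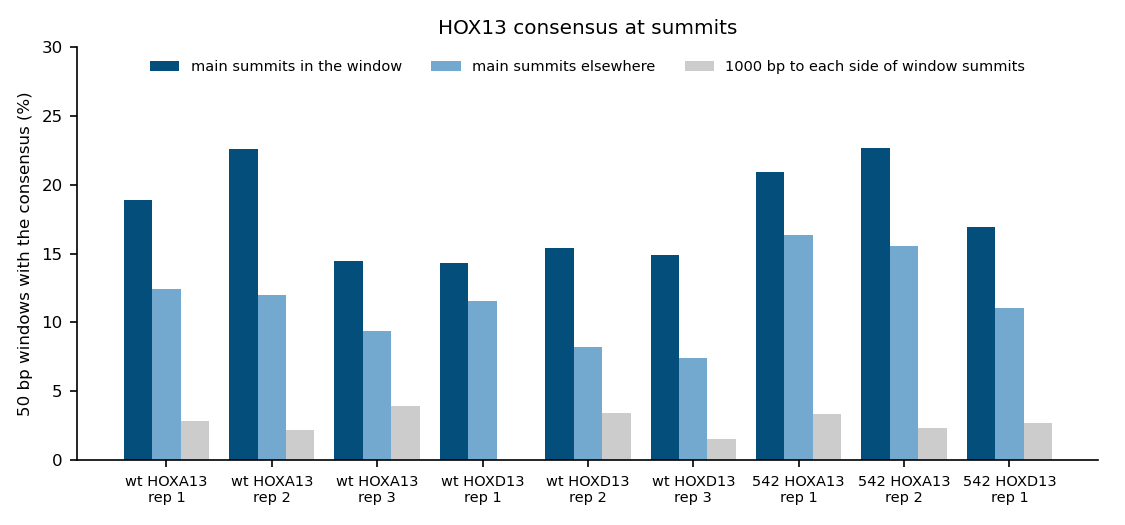
Share of 50 bp windows that hold the HOX13 consensus, in percent, for each list. Dark bars are main summits in the window, light blue bars main summits elsewhere and grey bars the positions 1000 bp to each side of the window's summits. The dark bar is the highest of the 3 in every list.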

How the data were processed

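CUT&RUN peak lists, 1 per library, were used as deposited; the titles gave genotype, stage and antibody of each library. Per the study's methods and the submitters' processing notes, reads were trimmed with cutadapt, mapped with Bowtie (wt on mm10, 542 on the mutant genome), filtered on mapping quality, and peaks were called per sample with MACS2 without a control, so that the local background includes neighbouring peaks. Of the deposited columns, fold enrichment is the ratio between the summit pileup and its local background, the −log10 p-value compares pileup and background under a Poisson model, and the −log10 q-value is its form adjusted by the caller. The score column deposited by the authors restates the q-value as a whole number and was not used.

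Rows with equal bounds were joined into 1 interval, whose main summit has the highest −log10 p. Pileups were recovered from fold enrichment and −log10 p and came out whole within 0.01 read ends for over 99.9% of summits in each list (checked on simulated data, as were merging, motif search and tests). Coordinates are 1-based, the annotation is GENCODE basic and the sequence RefSeq GRCm38, the assembly of mm10. Sites of the genome exclude chromosome 2 past the insertion.

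Sites named were those at member promoters, the site of most lists in each body and spacer (ties by median wt percentile), the 10 highest sites of all 9 lists, and sites particular to an antibody or to the 542 HOXA13 lists; sites named otherwise are marked. The members and lists were chosen with earlier results of these data known. Libraries were the units of all 7 exact permutation tests, whose p-values were adjusted together (Benjamini-Hochberg). Per the study's methods, each experiment used its own pool of embryos, and duplicate experiments came from different litters, which is not stated for the wt replicates 3. Same-numbered wt libraries correlated in their deviations from antibody means at 20274 merged top intervals (0.111, 0.142 and 0.348 for replicates 1, 2 and 3), so the titles' numbers were taken to pair them, although HOXA13 replicate 1 with HOXD13 replicate 2 reached 0.219. Python 3.11.15, numpy 2.4.6, pandas 2.3.3, scipy 1.17.1 and matplotlib 3.10.9 were used. Some promoter counts of the cluster are not reported here.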

Additional observations from a re-analysis of the deposited data

Results flagged for a closer look

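The ratio of the HoxA window to the HoxD locus in intervals per Mb differed in direction between the genotypes. All 3 wt HOXA13 lists had more intervals per Mb in the HoxA window (log2 ratio 0.05, 0.11 and 0.05) and both 542 HOXA13 lists had fewer (-0.07 and -0.10), a difference of means of 0.15 for wt over 542. The difference was not tested, and the HoxD stretch includes part of the proximal limb landscape. In the 542 HOXD13 library the log2 ratio was 0.14.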

How the results depend on the processing

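Of 106 alternative values for 8 results, 5 reversed. The reversals were the share of the window by antibody with the top 10000 intervals (log2 0.16), the share by genotype with a fold enrichment of at least 5 (0.065) and with the top 10000 intervals (0.060), the density against HoxD at 5-fold (-0.0097) and the consensus against other summits at 5-fold (-4.06 percentage points). The density past Hoxa13 against the cluster could not be computed at 5-fold, since a list had no such interval on the cluster side. In that list all such intervals of the window lay past Hoxa13, the opposite direction to the main result.

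At 5-fold the consensus against flanks fell to 8.70 percentage points and missed the threshold, and against other summits the difference missed it with every summit (2.71) and with the top 10000 (5.21). Sites in all 6 wt lists numbered 4 at 5-fold and 17 with the top 10000. With the replicate block, values were 2.15, 0.11, -0.53, 14.4 and 6.59 in the order genome, HoxD, past Hoxa13, flanks, other summits, all at p = 0.25 (exact sign-flip permutation test, the smallest possible), and the block changed neither share's call. With the wt replicates 1 and 2 only, an alternative chosen after seeing the data, they were 2.15, 0.12, -0.55, 15.7 and 6.74 at p = 0.12, the smallest that 4 libraries can give in this permutation test, and 44 sites were in all 4 lists.

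Leaving out each replicate in turn gave, in the same order, 2.05 to 2.20, 0.089 to 0.12, -0.60 to -0.42, 13.2 to 15.2 and 5.79 to 7.36, each past no threshold because 5 libraries cannot go below 0.062. The shares ranged from -0.43 to -0.12 by antibody and from -0.18 to -0.09 by genotype, and the sites from 37 to 47. The Hoxa13 promoter interval was called in the library of greatest inferred depth alone, and the part of depth in this was not tested. The remaining alternatives kept the direction and the side of the threshold.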
